A study of Mus musculus with 8 samples.

Results

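Cytosolic ribosomal protein genes encode the proteins of the ribosome that translates cellular mRNA. They were chosen from the gene table as protein-coding genes whose symbol is Rpl or Rps followed by a number, *Rplp0* to *Rplp2*, or *Rpsa*, leaving out Rps6k kinases and pseudogenes. The rule met 90 of 56691 genes. Of these, *Rps19bp1* encodes a protein that binds *Rps19* and is no part of the ribosome, so 89 ribosomal protein genes are described here. Of these, 77 are the standard gene of a ribosome position (31 of the 40S subunit, 43 of the 60S subunit and 3 of the P stalk), and 12 are paralogs or retrocopies of one.

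The study asked how loss of ATM, a kinase best known for its part in the response to DNA breaks, changes metabolism in a mouse model of ataxia-telangiectasia. RNA of whole cerebellum was sequenced from 4 *Atm*-WT mice (genotype ATM +/+, mice 2M, 7M, 13M and 32M) and 4 *Atm*-KO mice (ATM -/-, mice 1M, 7F, 11M and 12M). All were 6 months old and carried the B6;129S4-Atmtm1Bal/J background, in which heterozygous crosses gave both genotypes as littermates. The knockout is constitutive, no treatment was given to either group, and each library came from the saline-perfused, frozen cerebellum of a single mouse. The letter in a mouse's name was read as its sex, which makes 7F the only female.

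A ribosome has a small 40S subunit, which reads the mRNA, and a large 60S subunit, which joins the amino acids, and each standard protein occurs once in it except those of the stalk. The P stalk on the 60S subunit, built from *Rplp0*, *Rplp1* and *Rplp2*, recruits the elongation factors. Transcripts of these genes begin with a run of pyrimidines, the 5′ terminal oligopyrimidine (TOP) motif, through which mTORC1 and the RNA-binding protein *Larp1* set their translation and stability as a group. In neurons ribosomes are made in the cell body and are also found in dendrites and axons.

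Libraries held 65967130 to 88030300 counts. *Atm* itself, the targeted gene, was lower in every *Atm*-KO mouse, with a log2 fold change of -0.66 ± 0.10 (SE) and a mean at 63.5% of the *Atm*-WT level (two-sided exact permutation test over 4 and 4 mice, p = 0.0286, the smallest this design can give). Markers of granule and Purkinje cells summed to at least 7479 and 10689 CPM in every library (CPM, counts scaled to a common library size with TMM, the trimmed mean of M-values), whereas the 7 forebrain markers summed to at most 15.2 CPM. Because whole tissue was sequenced, fewer cells of a type and less RNA per cell cannot be told apart in any value given here.

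Most ribosomal protein genes were lower in the *Atm*-KO cerebellum, by a similar and small amount. Of the 84 members that passed the filter on low counts, 79 had a log2 fold change below 0 (94.0%). Among all 22423 genes tested 53.1% were below 0, and among the protein-coding ones 63.8%. The median of the members was -0.31 and their quartiles were -0.40 and -0.23. The median was -0.02 over all genes tested and -0.06 over the protein-coding ones. In the edgeR quasi-likelihood test, 8.48% of all genes and 11.7% of protein-coding genes were lower with an unadjusted p under 0.05. Of the members 60 were (71.4% of those tested). With a surrogate variable as covariate these were 31 members (5.59% of all genes), and the median was -0.18. Without the covariate *Rps10* alone was higher, where 11.7% of all genes were.

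No member reached an adjusted p under 0.05 with an absolute log2 fold change over 0.5, a call that 0.0178% of all genes met. The smallest adjusted p of any member was 0.0931. At an adjusted p under 0.1, 4 members were lower (0.647% of all genes were) and none was higher (1.25% of all genes were). DESeq2's Wald test was less strict, with 21 members lower at an adjusted p under 0.05 (2.44% of all genes). Of these, 1 was also past the fold threshold, for which no share of all genes is given. Limma voom called no member lower at an adjusted p under 0.05, and only 0.00892% of all genes. For single genes, therefore, the genotype difference did not hold up after adjustment in the main test, and the call depended on the tool.

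**Figure D1:**
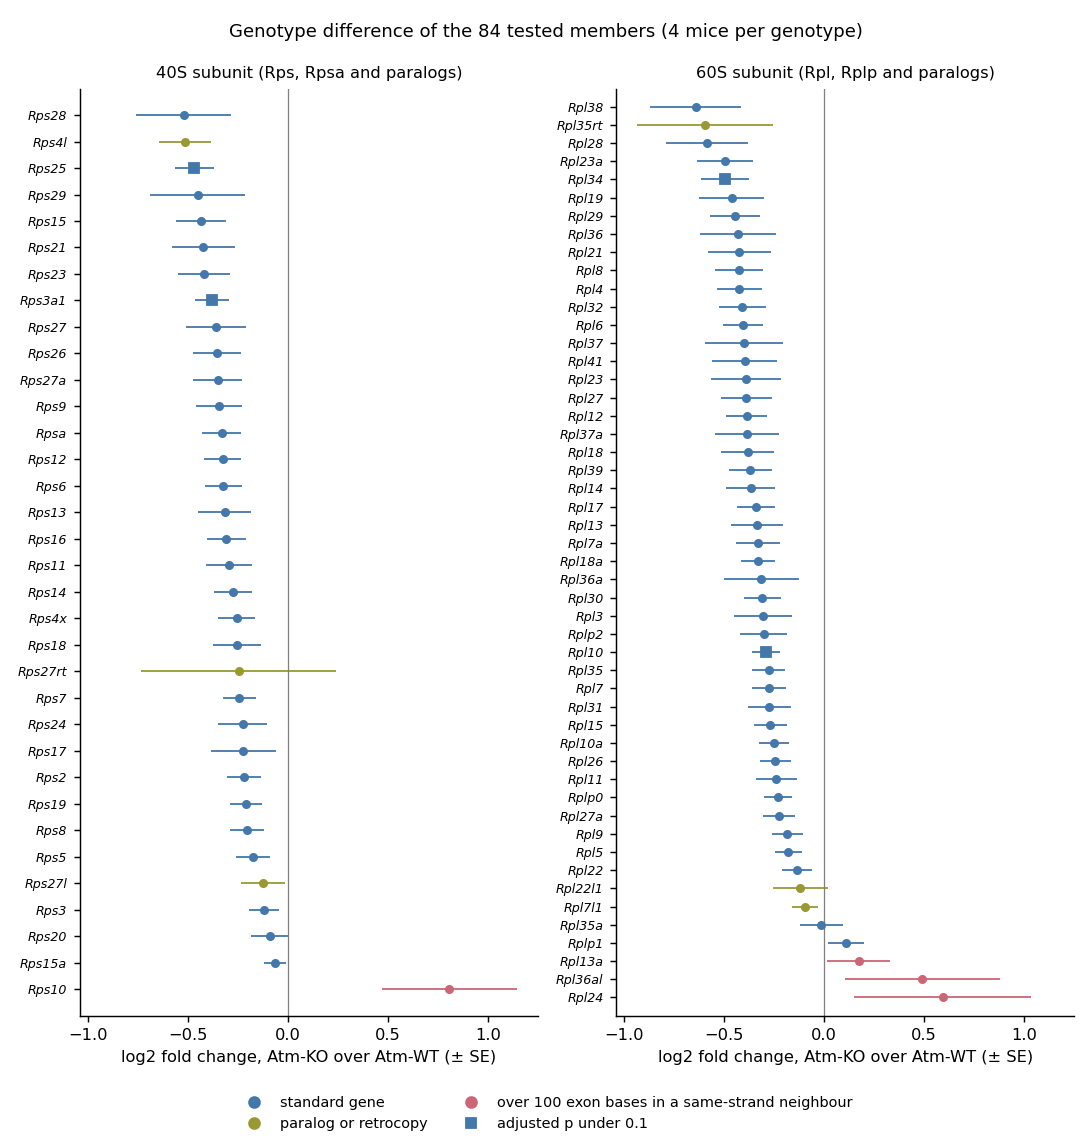
Log2 fold change of *Atm*-KO over *Atm*-WT with its standard error for each of the 84 tested members, the 40S proteins on the left and the 60S and P stalk proteins on the right. Squares mark the 4 members with an adjusted p under 0.1 in edgeR (0.647% of all genes were lower by this rule). Limma voom made this call for no member and for 0.0134% of all genes. Of the 84 points 79 lie below 0, and the members above 0 are *Rps10*, *Rpl24*, *Rpl36al*, *Rpl13a* and *Rplp1*.

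The 4 members with an adjusted p under 0.1 were *Rps25*, *Rps3a1*, *Rpl34* and *Rpl10*, and in each the genotypes did not overlap. No member kept an adjusted p under 0.1 with limma voom (0.0134% of all genes were lower by this rule) or with a surrogate variable as covariate (0.0937%). None kept it when any library other than *Atm*-KO 7F was left out, where 0.00439% to 0.135% of all genes were lower. Without 7F 19 members were lower, as were 1.67% of all genes. *Rps25*, a protein of the 40S head that several viral internal entry sites need, lies at chr9:44318436-44322627 on the plus strand (GRCm39). It measured 101, 94.1, 94.6 and 127 CPM in *Atm*-WT mice 2M, 7M, 13M and 32M, and 72.0, 83.1, 74.9 and 70.9 CPM in *Atm*-KO mice 1M, 7F, 11M and 12M. Its log2 fold change was -0.47 ± 0.10 (SE, adjusted p = 0.0931 in edgeR), with 7F the highest *Atm*-KO mouse and still below all *Atm*-WT mice.

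*Rps3a1*, the mouse gene for a protein on the platform of the 40S subunit near the mRNA exit (chr3:86045244-86050009, minus strand), measured 177, 163, 175 and 202 CPM in the *Atm*-WT mice. The *Atm*-KO mice had 138, 149, 144 and 121 CPM, a log2 fold change of -0.38 ± 0.08 (SE, adjusted p = 0.0931). *Rpl34*, a 60S protein (chr3:130519106-130524155, minus strand), measured 48.6, 42.8, 47.2 and 51.9 CPM in *Atm*-WT against 28.4, 42.0, 29.3 and 35.5 CPM in *Atm*-KO mice. Here 7F nearly reached the lowest *Atm*-WT mouse, and the log2 fold change was -0.49 ± 0.12 (SE, adjusted p = 0.0942). *Rpl10*, which joins the 60S subunit in its last steps of maturation (chrX:73314418-73316741, plus strand), measured 133, 132, 136 and 154 CPM in *Atm*-WT against 117, 118, 116 and 104 CPM in *Atm*-KO mice. Its log2 fold change of -0.29 ± 0.07 (SE, adjusted p = 0.0963) was smaller than that of the other 3, but its spread among mice was small too.

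Among the standard genes, the 3 lowest fold changes came with overlapping genotypes. *Rpl38*, a 60S protein whose loss in mice alters the patterning of the axial skeleton (chr11:114559350-114563166, plus strand), measured 36.2, 23.2, 22.6 and 44.6 CPM in *Atm*-WT against 17.8, 26.9, 21.0 and 15.4 CPM in *Atm*-KO mice. The log2 fold change was -0.64 ± 0.23 (SE, adjusted p = 0.158), and *Atm*-KO 7F exceeded the *Atm*-WT mice 7M and 13M. *Rpl28*, another 60S protein (chr7:4795873-4799713, plus strand), showed a like overlap, with 57.5, 31.3, 33.4 and 47.1 CPM in *Atm*-WT against 23.9, 38.7, 26.9 and 23.2 CPM in *Atm*-KO mice (log2 fold change -0.59 ± 0.21, adjusted p = 0.157). *Rps28*, a 40S protein beside the mRNA exit channel, was the next standard gene with a log2 fold change of -0.52 ± 0.24 (SE) and an adjusted p of 0.248.

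**Figure D2:**
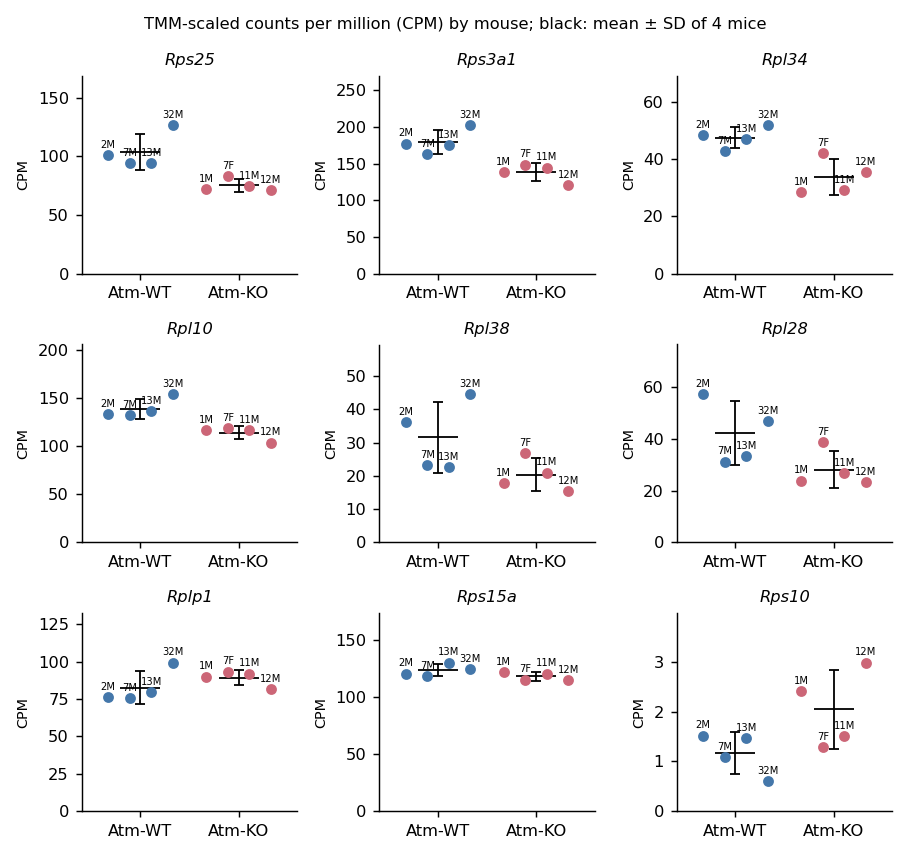
CPM of 9 members in each mouse (points, named by mouse), with the mean and SD of the 4 mice of a genotype in black; each vertical axis starts at 0. *Rps25*, *Rps3a1*, *Rpl34* and *Rpl10* do not overlap between genotypes, in *Rpl38* and *Rpl28* the *Atm*-WT mice 7M and 13M lie among the *Atm*-KO mice, *Rplp1* and *Rps15a* overlap, and *Rps10* is at 0.606 to 2.99 CPM.

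The spread within a genotype was shared by most members. Among the 77 standard genes, *Atm*-WT 32M was the highest of all 8 mice in 60 and *Atm*-KO 12M the lowest in 63. Mouse 7F was the highest *Atm*-KO mouse in 53. Both 2M and 32M exceeded both 7M and 13M in 60 of the 77, an order noticed after the values were seen. Relative to the *Atm*-WT mean of each gene, the median over the 77 genes was 0.03, -0.17, -0.16 and 0.20 (log2) in the *Atm*-WT mice 2M, 7M, 13M and 32M. It was -0.32, -0.19, -0.28 and -0.50 in the *Atm*-KO mice 1M, 7F, 11M and 12M, so that 7F lay only just below 7M.

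**Figure D3:**
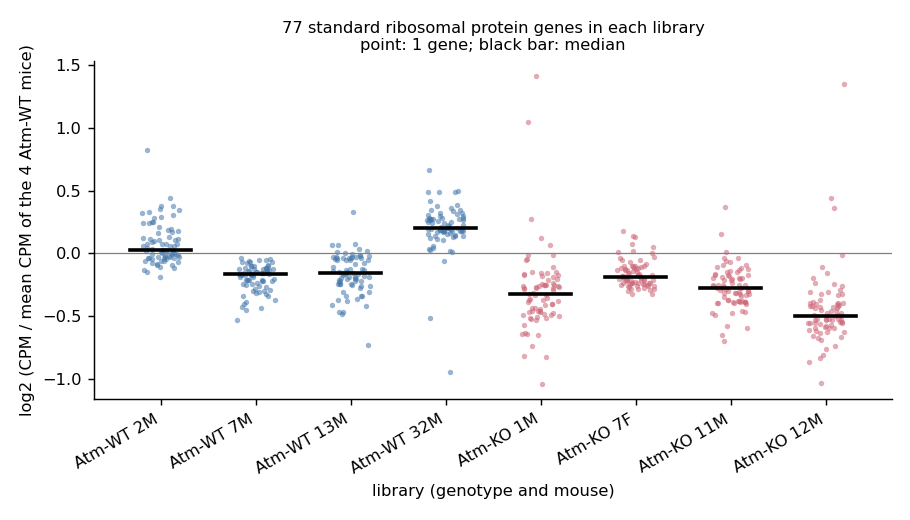
Level of each of the 77 standard genes in each library, as log2 of its CPM over the mean CPM of the 4 *Atm*-WT mice; each point is a gene and the black bar the median. The medians run from -0.17 to 0.20 in the *Atm*-WT mice and from -0.50 to -0.19 in the *Atm*-KO mice, and the points above 1 are *Rps10* in *Atm*-KO 1M and 12M and *Rpl24* in *Atm*-KO 1M.

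Counting whole genes without overlap, 32 members were lower in all *Atm*-KO than in all *Atm*-WT mice (5.12% of all genes tested were) and none was higher (6.47% of all genes were). Without *Atm*-KO 7F the count was 55 (9.48% of all genes). When levels were taken as a share of all counts or of protein-coding counts, without the TMM factors, it was 7 (2.64% and 2.40% of all genes). The summed level of the 89 members was 5802, 5084, 5307 and 6662 CPM in the *Atm*-WT mice 2M, 7M, 13M and 32M. In the *Atm*-KO mice 1M, 7F, 11M and 12M it was 4617, 5044, 4828 and 4149 CPM, so the genotypes just failed to overlap and the *Atm*-KO mean was 81.6% of the *Atm*-WT mean. As a share of all counts the members took 0.486% to 0.677% in *Atm*-WT against 0.425% to 0.499% in *Atm*-KO libraries, and there the genotypes overlapped.

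Both subunits were lower to a like degree. The log2 fold changes of the 31 standard 40S genes had a median of -0.31, with 30 below 0, and these genes summed to 2244 ± 246 CPM in *Atm*-WT against 1856 ± 147 CPM in *Atm*-KO mice (mean ± SD, n = 4 each). The 43 standard 60S genes had a median of -0.34, with 41 below 0, and summed to 3129 ± 420 against 2492 ± 229 CPM. The ratio of the 60S to the 40S sum was 1.39 ± 0.033 in *Atm*-WT against 1.34 ± 0.035 in *Atm*-KO mice, and its ranges overlapped.

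Within the 40S subunit, *Rps6*, the target of the S6 kinases, had a log2 fold change of -0.32 ± 0.09 (SE), with 93.1 to 119 CPM in *Atm*-WT against 71.6 to 92.0 CPM in *Atm*-KO mice. *Rpsa*, also known as a laminin receptor, had -0.33 ± 0.10, and *Rps26*, which touches the mRNA upstream of the start codon, had -0.35 ± 0.12. *Rps14* and *Rps19*, whose partial loss in humans causes forms of bone marrow failure, had -0.27 ± 0.09 and -0.21 ± 0.08. In these 5 genes the genotypes did not overlap, and the adjusted p lay between 0.116 and 0.184. *Rps3*, a protein at the mRNA entry that has also been linked to DNA repair, differed less, with -0.12 ± 0.08 (adjusted p = 0.404) and overlapping genotypes.

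Within the 60S subunit, *Rpl3*, at the peptidyl transferase centre, had 229 to 356 CPM in *Atm*-WT against 185 to 265 CPM in *Atm*-KO mice (log2 fold change -0.30 ± 0.15, adjusted p = 0.264). *Rpl5* and *Rpl11*, which bind 5S rRNA and, when free, the p53 regulator *Mdm2*, had -0.18 ± 0.07 and -0.24 ± 0.10. *Rpl7* had -0.28 ± 0.09, *Rpl39* at the peptide exit tunnel -0.37 ± 0.11, and *Rpl41*, which encodes a very short peptide, -0.40 ± 0.16. *Rpl4* and *Rpl6* were also among the better separated 60S genes, with -0.42 ± 0.11 and -0.40 ± 0.10 and no overlap between genotypes.

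The P stalk genes differed among themselves. *Rplp0*, the base of the stalk, measured 118, 120, 120 and 140 CPM in *Atm*-WT against 112, 104, 107 and 102 CPM in *Atm*-KO mice, with no overlap (log2 fold change -0.23 ± 0.07, adjusted p = 0.124). *Rplp2* had a log2 fold change of -0.30 ± 0.12 (adjusted p = 0.189). *Rplp1*, the partner of *Rplp2*, measured 76.4, 75.3, 79.6 and 99.4 CPM in *Atm*-WT against 90.1, 93.3, 92.0 and 81.7 CPM in *Atm*-KO mice. Thus 3 of the 4 *Atm*-WT mice were below all *Atm*-KO mice, the log2 fold change was 0.11 ± 0.09 (adjusted p = 0.522), and it was -0.04 once trends of GC content and length were removed.

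Other standard members lay close to 0 or above it. *Rps15a* measured 114 to 122 CPM in *Atm*-KO and 118 to 130 CPM in *Atm*-WT mice (log2 fold change -0.06 ± 0.06), and *Rpl35a* had -0.01 ± 0.11. *Rpl13a*, *Rpl24* and *Rps10* were higher in the mean, at log2 fold changes of 0.17 ± 0.16, 0.59 ± 0.44 and 0.81 ± 0.34. *Rps10* measured 1.52, 1.09, 1.47 and 0.606 CPM in *Atm*-WT against 2.41, 1.29, 1.51 and 2.99 CPM in *Atm*-KO mice. Its genotypes overlapped and its adjusted p was 0.213.

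These 3 and the paralog *Rpl36al* stood apart in their level as well. *Rps10*, *Rpl24* and *Rpl13a* had 0.368, 0.297 and 1.41 CPM per kilobase of exon in *Atm*-WT mice, where the median of the tested members was 21.2 CPM per kilobase. Of their exon bases, 475 in *Rps10*, 484 in *Rpl24*, 621 in *Rpl13a* and 332 in *Rpl36al* also belong to an exon of another gene on the same strand, the predicted genes *Gm49804*, *Gm28037*, *Gm45713* and *Gm49383*. Of the other members, only *Rpl19* and *Rpl41* shared any same-strand exon base, 36 and 25. The partners *Gm49804*, *Gm28037* and *Gm45713* had 0 counts in all libraries, and *Gm49383* had at most 0.118 CPM. How reads on shared bases were counted is not stated, so the low level of these 4 genes and their opposite direction go together and their cause was not tested. Among the 72 standard genes with no shared same-strand base, 71 had a log2 fold change below 0, with a median of -0.32.

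Levels per kilobase of merged exons spread widely among the standard members. Ranked by the mean over both genotypes, the 5 highest were *Rplp1*, at 141 ± 19.2 in *Atm*-WT against 152 ± 8.91 CPM per kilobase in *Atm*-KO mice, *Rps3a1* (156 ± 14.3 and 120 ± 10.7), *Rps4x* (89.9 ± 10.8 and 75.3 ± 6.80), *Rpl8* (70.7 ± 12.1 and 52.7 ± 6.50) and *Rpl4* (68.3 ± 11.2 and 51.0 ± 4.99; mean ± SD, n = 4). *Rpl8* and *Rpl4* did not differ beyond their spread, and *Rpl10* (64.0 ± 4.81 and 52.4 ± 3.13) was above *Rpl4* in the *Atm*-KO mice. Merged exons include rare and retained pieces, and in most members they are longer than the main mRNA, which lowers these levels.

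The paralogs and retrocopies were mostly low, and 7 of the 12 were tested. *Rpl22l1*, a paralog that *Rpl22* normally represses, was close to its standard gene per length: it made up 47.9% ± 3.97 of the summed level of the pair in *Atm*-WT against 48.6% ± 1.20 in *Atm*-KO mice (SD, n = 4). *Rpl22* had a log2 fold change of -0.14 ± 0.07 and *Rpl22l1* -0.12 ± 0.14. *Rps27l*, a p53-inducible paralog, made up 25.3% ± 3.37 and 28.1% ± 1.95 of its pair with *Rps27*, and *Rpl7l1* 21.7% ± 2.54 and 23.8% ± 1.81 of its pair with *Rpl7*. In all 3 pairs the share overlapped between genotypes. The fold changes of these paralogs (-0.12 ± 0.11 for *Rps27l* and -0.09 ± 0.07 for *Rpl7l1*) were nearer to 0 than those of *Rps27* (-0.36 ± 0.15) and *Rpl7*; the difference itself was not tested.

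*Rps4l*, a paralog of *Rps4x*, was the clearest of this group, at 9.14, 7.29, 7.90 and 8.91 CPM in *Atm*-WT against 6.59, 6.20, 5.26 and 5.24 CPM in *Atm*-KO mice (log2 fold change -0.51 ± 0.13, adjusted p = 0.103, no overlap). The retrocopy *Rpl35rt* had a like estimate with a wide error (-0.59 ± 0.34), at 0.516 to 1.77 CPM. *Rpl3l*, the striated muscle form of *Rpl3*, had 0 to 9 counts per library, and *Rpl39l*, a testis form of *Rpl39*, 0 to 18. *Rpl10l*, another testis form, and *Rpl27rt* had 0 counts in all 8 libraries, which allows a level of up to 3 counts in each, and *Rps23rg1* had 2 to 10. These 5 were not tested.

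*Fau* and *Rack1*, whose symbols fall outside the naming rule, were lower in the mean as well. *Fau*, which encodes Rps30 fused to a ubiquitin-like protein, had 65.2 ± 9.98 CPM in *Atm*-WT against 51.3 ± 6.44 CPM in *Atm*-KO mice (mean ± SD, n = 4; log2 fold change -0.35 ± 0.12, adjusted p = 0.145). *Rack1*, a signalling scaffold on the 40S head, had 92.1 ± 6.15 against 82.1 ± 2.51 CPM with no overlap (-0.17 ± 0.06, adjusted p = 0.181).

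The start sites show what the members share in sequence. RefSeq promoter windows (GRCm38.p6, another build than the gene table, so no positions are given) were found for 57 of the 77 standard genes, with 67 annotated starts. A run of at least 8 C or T within 15 bases of the start was found in 38.8% of these starts and in 12% of all 32851 RefSeq starts. The stretches below show the pyrimidine run near the start in members with low fold changes (*Rpl38*, *Rpl28*, *Rpl34*), near the median (*Rps6*, *Rplp2*, *Rpl15*), near 0 (*Rps15a*, *Rpl35a*) and above it (*Rps10*). These 9 were picked among members with a long run, and *Rps28* and *Rpl24*, with a low fold change and one above 0, show members without it; in 32 of the 57 members the run was under 8. Each stretch holds 15 bases before and 15 from the annotated start, 5′ to 3′ on the coding strand, and capitals mark its longest run of C and T. In *Rps15a* that run ends before the annotated start, and a shorter run begins at the last base before the start. *Rpl34* has 2 annotated starts and *Rpl35a* 3, and the start with the longest run is shown.
Rpl38: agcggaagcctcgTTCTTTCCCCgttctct
Rpl28: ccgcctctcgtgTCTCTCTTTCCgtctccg
Rpl34: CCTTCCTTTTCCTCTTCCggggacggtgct
Rps6: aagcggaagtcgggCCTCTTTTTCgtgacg
Rplp2: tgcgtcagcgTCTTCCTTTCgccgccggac
Rpl15: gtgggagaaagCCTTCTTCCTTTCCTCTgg
Rps15a: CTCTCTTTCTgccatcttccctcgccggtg
Rpl35a: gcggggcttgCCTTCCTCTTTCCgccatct
Rps10: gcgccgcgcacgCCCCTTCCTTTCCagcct
Rps28: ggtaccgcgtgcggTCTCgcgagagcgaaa
Rpl24: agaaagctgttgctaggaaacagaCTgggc

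The run was present both in members that were lower and in members that were not. The 25 members with a run of at least 8 had a median of -0.33 in log2 fold change, and the 32 others -0.31. In the whole window of 250 bases before to 50 after the start, CCGGAA, the core of ETS factor motifs, was found on either strand in 49.3% of member starts against 14.9% of all starts. The GC box GGGCGG was found in 61.2% against 35.7%, AAGATGG, a core of the YY1 motif, in 16.4% against 6.34%, and the TATA box core TATAAA in 8.96% against 13.6%. CTTTCC was searched on the coding strand only, where it overlaps the pyrimidine run, and was found in 38.8% against 14.1%. These matches describe letters in the window and no binding was measured.

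Other genes of translation were counted by the same rules, beside 8.48% of all genes lower and 11.7% higher at an unadjusted p under 0.05. Of the 16 TOP mRNA genes that encode no ribosomal protein, 16 had a log2 fold change below 0 (median -0.18), 9 were lower at an unadjusted p under 0.05 and 2 at an adjusted p under 0.1. Those 2 were *Eef1g*, a subunit of the factor that brings aminoacyl-tRNA to the ribosome (136 ± 11.8 and 110 ± 6.35 CPM, log2 fold change -0.30 ± 0.07, adjusted p = 0.0958), and *Eif4b*, a helper of the initiation helicase (262 ± 12.3 and 219 ± 9.71 CPM, -0.26 ± 0.06, adjusted p = 0.0942). All 8 elongation factor genes and 31 of 35 initiation factor genes were below 0, with medians of -0.23 and -0.12, and 5 and 11 were lower at an unadjusted p under 0.05; these lists share genes with the TOP list.

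Mitochondrial ribosomal protein genes, which build the separate ribosome of mitochondria, had a median log2 fold change of -0.08 over 77 genes. Of these, 7 were lower (9.09%) and 5 higher at an unadjusted p under 0.05, close to the 8.48% and below the 11.7% of all genes. Ribosome biogenesis factors had a median of -0.03 over 50 genes, with 6 lower and 2 higher, among them the kinase *Riok1* (16.3 ± 1.65 against 22.8 ± 4.20 CPM, log2 fold change 0.48 ± 0.13, adjusted p = 0.113). Genes of mTORC1 and TOP mRNA control had a median of 0.02 over 17 genes, with 2 lower and 1 higher. The higher one was *Rps6kb2*, an S6 kinase, at 11.9 ± 1.83 in *Atm*-WT against 20.2 ± 4.63 CPM in *Atm*-KO mice (0.77 ± 0.17, adjusted p = 0.0931). Genes of ribosome surveillance and quality control had a median of 0.05 over 18 genes, with none lower and 2 higher, one of them *Gtpbp2*, a factor for stalled ribosomes (38.4 ± 3.67 against 54.2 ± 7.40 CPM, 0.50 ± 0.10, adjusted p = 0.0931).

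**Figure D4:**
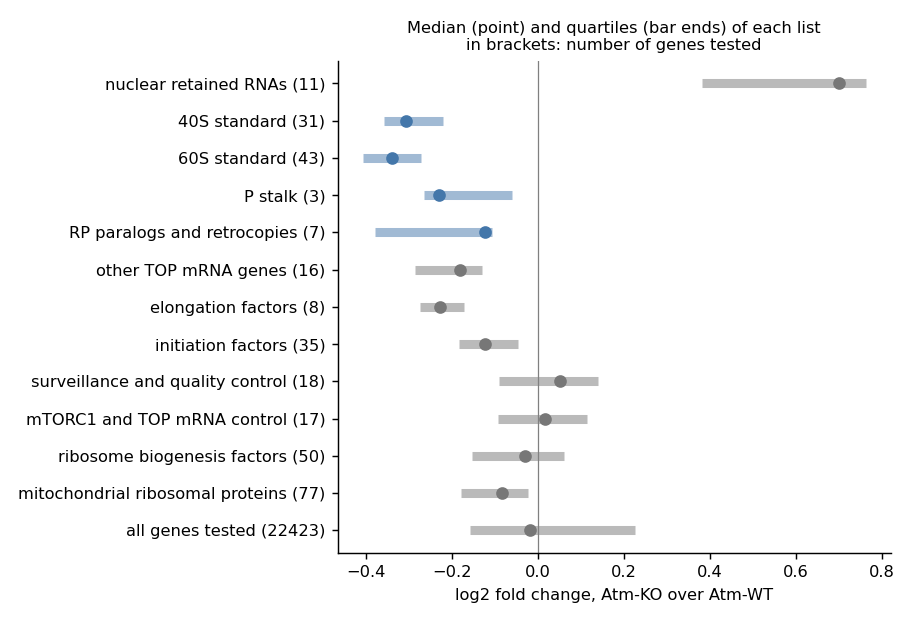
Median (point) and range between the quartiles (bar) of the log2 fold changes of each gene list, with the number of genes tested in brackets; ribosomal protein lists are blue. The 40S and 60S medians lie at -0.31 and -0.34, mitochondrial ribosomal protein genes at -0.08, all genes at -0.02 and the nuclear retained RNAs at 0.70.

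Most of the listed RNAs that stay in the nucleus were higher in the mean of the *Atm*-KO mice. The 12 listed nuclear retained RNAs, among them *Malat1*, *Neat1* and *Meg3*, summed to 9671, 9342, 10324 and 5402 CPM in *Atm*-WT mice 2M, 7M, 13M and 32M. They summed to 16560, 11780, 11602 and 16305 CPM in *Atm*-KO mice 1M, 7F, 11M and 12M. Of the 11 tested, 8 were higher at an unadjusted p under 0.05, as 11.7% of all genes were, and 2 had log2 fold changes below 0, *Peg13* (-0.14) and *Pantr1* (-0.10). *Neat1* (52.4 ± 5.45 against 85.1 ± 8.04 CPM, log2 fold change 0.70 ± 0.09) had an adjusted p of 0.0371. It was over 0.05 with limma voom (0.0515) and without mouse 1M, 11M, 2M or 7M (0.164, 0.113, 0.135 and 0.0793). Without *Xist*, which is expressed in females, 7F had 10870 CPM and the genotypes still did not overlap. Mouse 32M had the lowest nuclear and the highest ribosomal protein sum, and 12M the second highest nuclear and the lowest ribosomal protein sum. The part of nuclear RNA in the ribosomal protein difference was not tested.

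**Figure D5:**
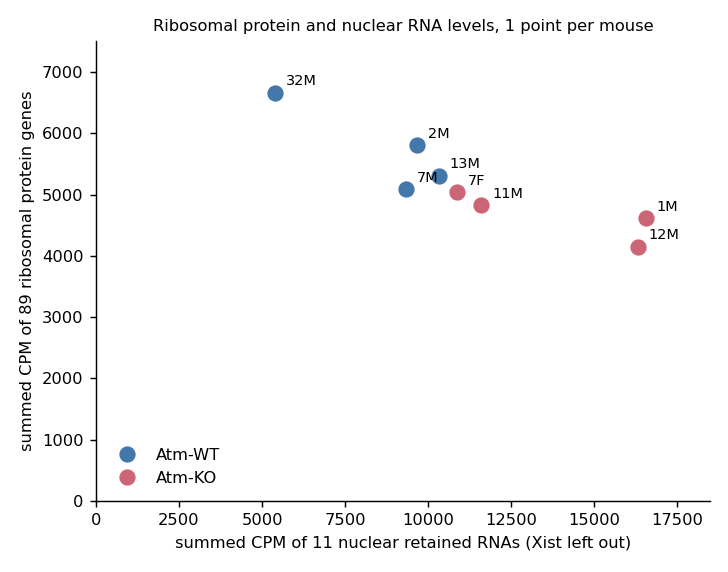
Summed CPM of the 89 ribosomal protein genes (vertical) against that of 11 nuclear retained RNAs without *Xist* (horizontal), with a point for each mouse and both axes from 0. The *Atm*-WT mice lie at 5084 to 6662 and the *Atm*-KO mice at 4149 to 5044 on the vertical axis, and the order of the mice on the 2 axes is nearly opposite.

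Markers of several cell types were also lower in the mean of the *Atm*-KO mice, and no listed marker was at 0 in all libraries. Of the 10 markers each, all were below 0 for microglia (summed level 146 to 199 CPM in *Atm*-WT, 113 to 149 CPM in *Atm*-KO), for mural cells (243 to 291 and 184 to 244 CPM), for oligodendrocytes (3351 to 4404 and 2028 to 3470 CPM), for astrocytes and Bergmann glia (5425 to 6203 and 4816 to 5615 CPM) and for choroid plexus (828 to 1639 and 451 to 1277 CPM). Of the 10 endothelial markers 6 were below 0 and 4 above it, and they summed to 389 to 442 and 277 to 363 CPM. Of the 11 Purkinje cell markers 10 were below 0, with a median of -0.11, and they summed to 10919 to 13096 and 10689 to 12591 CPM. Of the 11 granule cell markers 4 were below 0, and they summed to 7479 to 9045 and 7913 to 10513 CPM. Median log2 fold changes were -0.36 for microglia, -0.27 for mural cells, -0.18 for oligodendrocytes, -0.16 for astrocytes and Bergmann glia and -0.57 for choroid plexus. They were -0.30 for endothelial and 0.05 for granule cell markers. At an unadjusted p under 0.05 in edgeR, 8.48% of all genes were lower. So were 6 microglia, 5 mural, 5 endothelial, 4 astrocyte, 3 oligodendrocyte, 2 choroid plexus and 2 Purkinje cell markers, and no granule cell marker. The sums overlapped between genotypes in each of these lists except the endothelial one. Of the 7 red blood cell markers 6 were tested and all 6 were above 0. The 7 summed to 7.07 to 44.6 and 9.18 to 51.4 CPM, with overlap. The mitochondrial genome took 0.903% to 1.20% of counts in *Atm*-WT against 0.565% to 0.952% in *Atm*-KO libraries. The part of these shifts in the ribosomal protein difference was not tested.

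Some counts of single members are uncertain because other places in the genome hold the same sequence. In 23 of the 89 members, more than 50% of the 100-base windows of the main mRNA occur exactly elsewhere in GRCm39, up to 93.1% in *Rpl23a* and 92.1% in *Rps6*. The 328 annotated pseudogenes of Rpl and Rps genes summed to only 36.3 to 61.0 CPM in *Atm*-WT against 35.8 to 44.9 CPM in *Atm*-KO libraries. Across the 77 standard genes the log2 fold change had a Spearman correlation of 0.02 with the share of such windows, -0.06 with GC content, -0.11 with the level per length and 0.24 with the merged exon length, given as a description of genes that share libraries. In 42 members an exon overlaps a gene on the opposite strand, and whether strand was used in counting is not known. The members host 59 snoRNA genes inside 30 genes, which guide rRNA modification; 29 of them had no counts and all together they had 238 to 361 counts in *Atm*-WT against 295 to 712 in *Atm*-KO libraries.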

How the data were processed

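RNA of 8 mouse cerebella (4 *Atm*-WT, 4 *Atm*-KO) was sequenced by Novogene on an Illumina HiSeq platform. Per the labels and the study's methods, the authors checked reads with FastQC 0.11.9, aligned them with STAR to GRCm39 with GENCODE release M28, and deposited raw counts per gene from featureCounts, without normalization. The strand, pair and multimapping settings and the selection of RNA for the libraries are not given in the sources used here. Of the counts from 1 to 50, 67.3% to 73.3% were even, so mates of a pair may have been counted singly.

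Identifiers were matched without version to GENCODE vM39 (98.8% found). Counts were filtered with filterByExpr (22423 of 56691 genes kept), normalized by TMM and tested with glmQLFit and glmQLFTest of edgeR 4.0.16 in R 4.3.3, after a test on simulated data, without covariates, and p-values were adjusted over the whole table by Benjamini-Hochberg. Standard errors are the log2 fold change over the root of F. CPM used TMM factors, and levels per length divided CPM by merged exon kilobases. Alternatives were DESeq2 1.42.0, limma voom 3.58.1, other scalings and filters, a surrogate variable (sva 3.50.0), removal of GC and length trends, and each library left out. With 4 separate mice per genotype, a single-value permutation test cannot give a p under 0.0286.

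Members and lists were chosen with earlier results of these data known. Named genes were, of the tested members, the 5 highest and 5 lowest fold changes, the 5 smallest p in each direction, the 5 highest and 3 lowest levels per length, a fixed set of members of known role, *Fau* and *Rack1*, and up to 2 genes per direction of each other list. *Rps15a*, *Rpl35a*, *Rpl15*, *Rpl23a*, *Rps27rt*, *Rpl19*, *Peg13* and *Pantr1* were named after their values were seen. A further gene of the rule is not reported here.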

Additional observations from a re-analysis of the deposited data

Results flagged for a closer look

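In groups of 4 mice, a value was set apart when its gap to the next exceeded 0.829 of the group's range, which chance alone gives in about 1 of 20 groups, or 4.9 of the 98 groups examined here; 5 were found. *Atm*-WT 32M stood above the other *Atm*-WT mice in *Rplp0* (140 CPM against 118 to 120) and in the summed P stalk genes (297 CPM against 236 to 241). *Atm*-KO 12M stood below the other *Atm*-KO mice in *Rpl10* (104 CPM against 116 to 118) and in the P stalk sum (217 CPM against 236 to 239). *Rpl24* was higher in *Atm*-WT 2M (0.620 CPM) than in the other *Atm*-WT mice (0.242 to 0.291 CPM). Mice 32M and 12M are also those with the highest and the lowest summed level of all members.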

How the results depend on the processing

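The median log2 fold change of the tested members was below 0 under all 18 alternatives, from -0.39 with GC and length trends removed to -0.18 with a surrogate variable, and from -0.38 to -0.22 when a library was left out (without *Atm*-WT 7M and without *Atm*-WT 32M). The count of members past an adjusted p of 0.05 and an absolute log2 fold change of 0.5 was 0 in the main test (0.0178% of all genes). It was 1 with DESeq2, for which no share of all genes is given. The count lower at an adjusted p under 0.1, 4 in the main test, was 40 with DESeq2 (4.43% of all genes were lower by this rule), 37 with GC and length trends removed (2.40%), 34 with no filter on low counts (1.20%), 9 with at least 10 counts in every library (1.06%), 2 among protein-coding genes only (0.509%), 0 with limma voom (0.0134%) and 0 with a surrogate variable (0.0937%); it was 0 without any one library except 7F, where 1 to 31 genes of the whole table were called lower, and 19 without *Atm*-KO 7F (range 0 to 19; 1.67% of all genes). At an adjusted p under 0.05 it was 21 with DESeq2 (2.44%) and 11 with no filter (0.479%). The 60 members lower at an unadjusted p under 0.05 became 31 with a surrogate variable (5.59% of all genes) and 42 with library size alone (4.66%). They became 49 among protein-coding genes only (7.41% of those genes) and 41 to 69 when a library was left out (5.67% to 8.63% of all genes). The 32 members lower without overlap (5.12% of all genes) became 7 as a share of all counts (2.64%) and 7 as a share of protein-coding counts (2.40%). They became 32 to 55 when a library was left out, where the share of all genes also rose, to 6.19% to 9.48%. The *Atm*-KO sum stayed between 78.7% and 86.3% of the *Atm*-WT sum when a library was left out. Members below 0 numbered 76 with a surrogate variable and 77 to 79 when a library was left out. Direction turned for *Rpl35a* (0.011 to 0.097 under 6 alternatives), for the retrocopy *Rps27rt* (0.038 with a surrogate variable, 0.23 without *Atm*-WT 2M), for *Rpl22l1* (0.026 with a surrogate variable and 0.053 without *Atm*-WT 32M, within a range of -0.19 to 0.053 when a library was left out) and for *Rplp1* (-0.043 with GC and length trends removed). The causes were not tested. No paired analysis was possible because the genotypes share only the number 7, on mice of different sex. Counts set a limit for low members such as *Rpl36al*, with 13 to 34 per library.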
